A study of Mus musculus with 6 samples.

Results

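The genes described here encode the proteins of the cytosolic ribosome. They were chosen by name, as the rows whose symbol has the form of a large subunit gene (Rpl or Rplp with a number) or a small subunit gene (Rps with a number), without S6 kinase genes and names that mark pseudogenes, and with a summed count of at least 60 over the 6 libraries. The rule found 83 genes among the 17191 in the table, 52 of the large and 31 of the small subunit. No matching name fell below the minimum. Rpl3l, with a summed count of 67, lay nearest to it, followed by Rpl32l with 291 and Rpl21 with 666. The deposited annotation assigns 81 of the 83 to the KEGG ribosome pathway, the exceptions being Rpl6l and Rpl7l1. In GENCODE M21, Rpl6l and Rpl32l are single-exon processed pseudogenes although their names fit the rule, and the other 81 are protein-coding genes.

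RNA was sequenced from cells of subcutaneous tumours that CT26, a mouse colorectal carcinoma line, formed in BALB/c females of 6 to 8 weeks. The mice received vehicle (3 libraries) or TP-18, a compound named only by this code, at 50 mg/kg by mouth once daily for 3 weeks (3 libraries). No engineered allele is named in the labels, and both groups carried the same tumour line. The labels differ on the cells: the series design names sorting for CD11b, F4/80 and CD206, magnetic beads for CD11b appear in the treatment protocol, and the fields of the samples give the CT26 line. Separate mice are not stated for the libraries. The p-values therefore cover only the spread between these libraries, some of which may be technical.

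Each ribosome joins a small subunit, which reads the messenger RNA, to a large subunit, which makes the peptide bond. Their proteins are needed in nearly equal numbers and their genes are among the most transcribed of any cell. The messenger RNAs of most of them open with a C and a run of pyrimidines, the TOP motif, through which the kinase mTORC1 and the protein LARP1 control their translation. In macrophages, translation through mTORC1 changes with activation and nutrient supply.

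Of the 83 genes, 62 matched an entry in the RefSeq table of promoter windows (GRCm38.p6, 250 bases before to 50 after the annotated start), 39 of the large and 23 of the small subunit, with the earliest listed window of each gene used. The windows below run from 30 bases before the annotated start to 20 bases from it, 5′ to 3′ on the gene's strand, with the pyrimidine run nearest the start in capitals. They were chosen among the members with the smallest p, those that departed from the rest or have a paralogue, and Rps6, after their values were seen. Rps28 and Rpl22, with no such run within 20 bases of the start, as in 15 of the 62 members, are wholly in lower case.
Rps27 (chr3:90213629-90213678, minus strand): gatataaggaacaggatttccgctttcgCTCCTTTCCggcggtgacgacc
Rps28 (chr17:33824543-33824592, minus strand): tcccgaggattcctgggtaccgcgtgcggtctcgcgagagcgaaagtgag
Rpl34 (chr3:130730379-130730428, minus strand): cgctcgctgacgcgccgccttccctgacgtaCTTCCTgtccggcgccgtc
Rpl18 (chr7:45718041-45718090, plus strand): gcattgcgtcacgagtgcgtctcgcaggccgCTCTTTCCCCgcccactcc
Rps9 (chr7:3704011-3704060, plus strand): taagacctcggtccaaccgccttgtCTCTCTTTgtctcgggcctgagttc
Rps6 (chr4:86857348-86857397, minus strand): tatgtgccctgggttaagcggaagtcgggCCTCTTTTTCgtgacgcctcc
Rpl7a (chr2:26910777-26910826, plus strand): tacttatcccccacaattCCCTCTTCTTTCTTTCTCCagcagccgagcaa
Rpl22 (chr4:152325696-152325745, plus strand): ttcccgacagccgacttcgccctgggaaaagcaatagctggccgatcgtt
Rpl22l1 (chr3:28805478-28805527, plus strand): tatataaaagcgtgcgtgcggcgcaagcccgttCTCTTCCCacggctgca
Rps27l (chr9:66946056-66946105, plus strand): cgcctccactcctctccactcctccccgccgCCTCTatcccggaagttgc

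In these windows the run is 10 bases long in Rpl18 and Rps6, 9 in Rps27, 8 in Rps9 and Rpl22l1, 6 in Rpl34 and 5 in Rps27l. Rpl7a carries a run of 19 that begins 12 bases before its annotated start. A C followed by at least 4 further pyrimidines and lying within 20 bases of the annotated start was present in 47 of the 62 members (75.8%), against 48.4% of 27025 genes. With the C exactly at the annotated start it was present in 13 of the 62 members and in 2.49% of genes, and annotated starts can be off by several bases. Over the whole 300-base window and on either strand, CCGGAAG, the core of the site of ETS-family factors, occurred in 38.7% of members and 9.12% of genes. GGGCGG, the site of SP1-like factors, occurred in 58.1% and 35.9%. AAGATGGC, the site of YY1, occurred in 8.06% and 2.88%. CACGTG, the E-box that MYC can bind, occurred in 8.06% and 7.24%, and TATAAA in 11.3% and 14.2%, Rps28 being among the members that hold it. A match is a description of letters, not of binding, and these motifs were searched separately, so they can lie in the same promoter or overlap. The 27025 genes are all those with a full window in the RefSeq table, not only those tested here. Shares among expressed genes alone were not computed.

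The genes are spread over 19 chromosomes. Of the 83, 29 (34.9%) hold at least 1 annotated snoRNA gene on their own strand, 55 snoRNA genes in all, against 1.52% of the 16584 protein-coding genes matched to GENCODE. Rpl4, at 64173375 to 64178666 on chromosome 9, holds 5, and Rpl13a holds 4. Small nucleolar RNAs guide the modification of ribosomal RNA, and many are released from introns.

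Total counts were 16371128 to 17597645 per library, with 14690 to 15424 genes above 0. TMM factors, which scale for the make-up of a library, were 0.924 to 0.962 with vehicle and 1.05 to 1.07 under TP-18. With library totals as scaling instead, the median over all genes of the log2 fold change moved up by 0.18, from 0.02 to 0.20. Itgam (CD11b) had 803 to 1319 CPM, Mrc1 (CD206) 630 to 1452 CPM and Adgre1 (F4/80) 99.9 to 295 CPM over the 6 libraries, and the 8 epithelial or carcinoma genes in the table summed to 490 to 699 CPM with vehicle and 288 to 558 CPM under TP-18, given with the other marker lists below. Library vehicle 2 stood apart in the ribosomal protein genes. The main summary values, several leading members, the main relative differences and the differences in paralogue ratios are given with and without it.

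Ribosomal protein genes made up 8.03%, 10.0% and 7.47% of all counts in libraries 1, 2 and 3 of the vehicle group, and 7.58%, 6.76% and 6.76% in those of the TP-18 group. The means were 8.50 ± 1.33% with vehicle and 7.03 ± 0.473% under TP-18 (SD, n = 3 each), and the groups overlapped because TP-18 1 lay above vehicle 3. The difference of the means was -1.47 percentage points, and -0.72 without vehicle 2. The large subunit took 5.04 ± 0.791% and 4.21 ± 0.277%, the small subunit 3.46 ± 0.542% and 2.82 ± 0.197%. Exact (Clopper-Pearson) 95% intervals for the shares of single libraries had half-widths of at most 0.0112 percentage points and cover counting error only, far less than the spread between libraries. Per length, the ratio of summed large to summed small subunit FPKM was 1.35, 1.34 and 1.30 with vehicle and 1.37, 1.36 and 1.37 under TP-18.

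**Figure D1:**
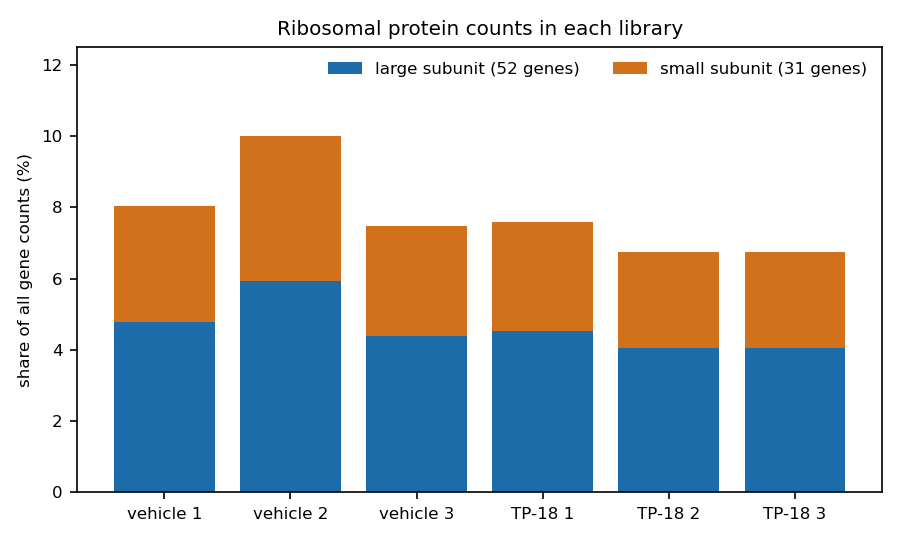
Share of all gene counts (%, vertical axis) taken by the 52 large subunit genes (blue) and the 31 small subunit genes (orange) in each of the 6 libraries, as stacked bars from 0. Vehicle 2 reached 10.0%, the other 5 libraries lay between 6.76% and 8.03%, and the proportion of large to small subunit was similar in all.

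By level per length, the median over genes of the mean FPKM was 877 for the large and 1327 for the small subunit. In the large subunit, Rplp1 had 3873 FPKM over the 6 libraries, Rpl41, which encodes the shortest ribosomal protein, 3547, Rpl28 3069, Rpl32 2670, Rpl12 2387 and Rpl8 2218 FPKM. In the small subunit, Rps9 had 2569, Rps29 2431, Rps26 2318, Rps23 2252, Rps3a1 2092 and Rps16 2065 FPKM. Neighbours in these orders mostly lay within the spread of the vehicle libraries, which was 809 FPKM (SD, n = 3) for Rplp1 and 777 for Rpl41. In all, 43 genes lay above 1000 FPKM and 75 above 100 FPKM, and both the order and the count depend on the lengths the authors used.

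At the other end stood paralogues and genes whose reads are hard to place. Rpl21 had 3.50 FPKM, Rpl29 21.7 and Rps2 114 FPKM, although the protein of each is a standard component of the ribosome. Processed copies are known for many ribosomal protein genes, and how reads that match several places were counted is not given in the sources used here, so the levels of single members are uncertain. The level also depends on the length used. In 23 members the deposited length was over 1.5 times the median length of coding transcripts in GENCODE. The deposited length of Rps15a was 5.14 kb against 0.639 kb in GENCODE, which would put its mean level at 1060 FPKM in place of 132. Rps24 would go from 583 to 2177 FPKM, and Rpl12, whose deposited length is the shorter, from 2387 to 1226. The order at the top changes with it. By GENCODE length Rpl13a would be highest at 3737 FPKM in place of 1803, ahead of Rplp1 at 3632 and Rpl41 at 3025, while Rpl28 would move to rank 18, Rpl32 to 19, Rps23 to 41 and Rps16 to 48 of the 83. The number above 1000 FPKM would be 54 in place of 43. Within-gene comparisons between libraries do not depend on this length.

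The comparison of TP-18 with vehicle asked how these genes differed in the tumour-derived cells after treatment. None of the 83 passed the edgeR test after adjustment (smallest adjusted p = 0.191, for Rps27 and Rps28), against 0.11% of all 12721 tested genes (0.0865% called lower and 0.0236% higher). All 83 had a negative log2 fold change, between -0.64 and -0.11, where 47.4% of all genes did. The median was -0.45 for the 52 large and -0.46 for the 31 small subunit genes, beside 0.02 for all tested genes. At an unadjusted p under 0.05, edgeR gave 67 lower members (38 large, 29 small) and 0 higher, while 8.7% of all genes were lower and 7.56% higher in this way. In 73 members (44 large, 29 small) every TP-18 library lay below every vehicle library, as in 11.7% of all genes. These genes move together from library to library, so their counts do not stand for 83 separate measurements. In bulk RNA, fewer cells of a type with many ribosomes and less of these transcripts per cell cannot be told apart.

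These counts shifted with the scaling. With library totals, 82 of 83 members were negative (28.2% of all genes), the exception being Rpl3l at 0.069, 6 were lower at an unadjusted edgeR p under 0.05 (3.47% of all genes) and 35 had groups without overlap (4.76%). The medians were then -0.27 for the large and -0.29 for the small subunit. Under both scalings the distance of the members from the median of all genes was -0.47 for the large and -0.49 for the small subunit. A change of library scaling moves all genes by nearly the same amount, so this distance could hardly have differed. DESeq2 called 7 of the 83 lower, Rpl18, Rpl23, Rpl34, Rps9, Rps13, Rps27 and Rps28, with adjusted p = 0.0247 to 0.0491, while 2.51% of all genes were called lower by it.

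**Figure D2:**
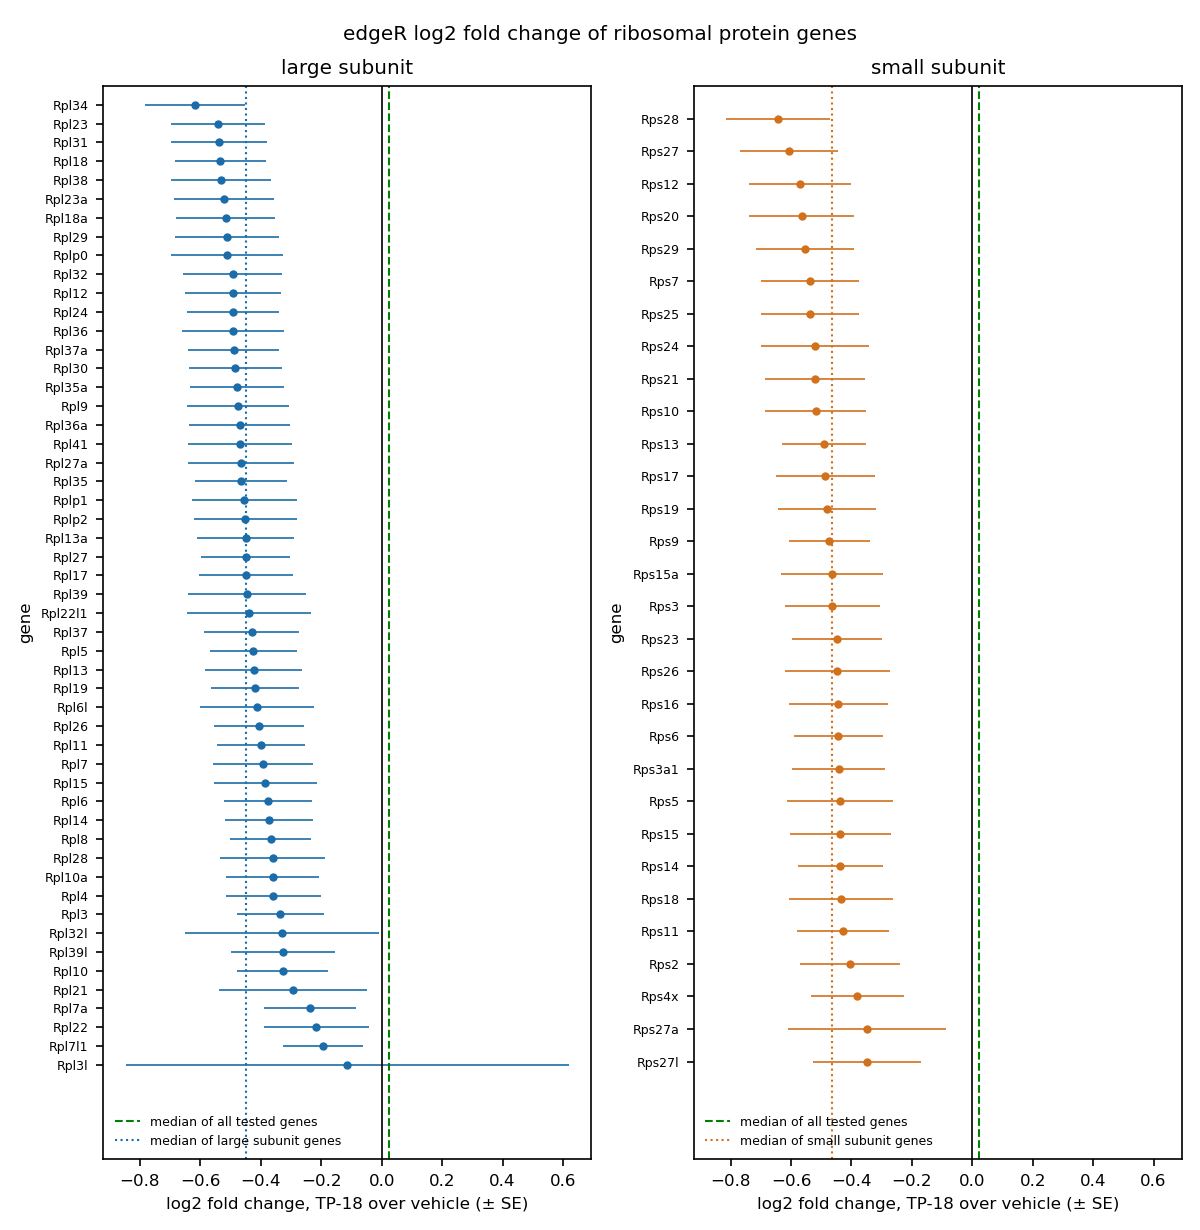
edgeR log2 fold change of TP-18 over vehicle (horizontal axis, points with ± SE bars) for 82 of the 83 genes, large subunit on the left and small subunit on the right. Dotted lines mark the subunit medians of -0.45 and -0.46 and dashed lines the median of all tested genes, 0.02; all 82 points lie below 0 with TMM scaling, Rpl3l with a bar of ± 0.73.

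Among the small subunit genes, Rps28, whose protein sits near the site where messenger RNA leaves the ribosome, had 770, 1063 and 762 CPM in libraries 1, 2 and 3 of the vehicle group and 602, 534 and 525 CPM in those of the TP-18 group. The groups did not overlap, and the log2 fold change was -0.64 ± 0.17 (SE, edgeR adjusted p = 0.191). Rps27, a zinc-binding protein of the small subunit, had 763, 1047 and 796 CPM with vehicle and 608, 549 and 554 CPM under TP-18. Its log2 fold change was -0.61 ± 0.16, and a near copy, Rps27rt, with 68.6 ± 14.5 and 48.6 ± 3.98 CPM, had -0.50, so reads may be divided between them. Rps9, a protein of early small subunit assembly, had 2064, 2318 and 1973 CPM with vehicle and 1620, 1560 and 1397 CPM under TP-18. Rps13 had 654 ± 78.5 and 465 ± 22.7 CPM (SD, n = 3 each), with a log2 fold change of -0.49 ± 0.14. Rps29, another zinc-binding protein, was lowest in TP-18 2 and had 1089, 1339 and 991 CPM and then 827, 680 and 823 CPM.

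Members of the small subunit with functions beyond translation showed values of the same size. Rps6, the substrate of the S6 kinases downstream of mTORC1, had 1012, 1240 and 993 CPM with vehicle and 872, 782 and 733 CPM under TP-18, a log2 fold change of -0.44 ± 0.15 (edgeR adjusted p = 0.235). Rps3, which also binds the NF-kB subunit p65, had 2434 ± 387 and 1766 ± 158 CPM (-0.46). Rps14, whose loss from 1 allele underlies the anaemia of the 5q deletion syndrome, had 999 ± 123 and 738 ± 41.8 CPM (-0.44). Rps19, the gene most often mutated in Diamond-Blackfan anaemia, had 1146 ± 207 and 821 ± 53.7 CPM (-0.48). Rps4x, encoded on the X chromosome, had the highest CPM of these, 2682 ± 380 and 2060 ± 205, with -0.38. None overlapped between groups, and none passed the edgeR test. The abundant Rps16, Rps23, Rps26 and Rps3a1 had log2 fold changes of -0.44, -0.45, -0.45 and -0.44.

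In the large subunit the smallest p belonged to Rpl34, with 847, 1144 and 842 CPM with vehicle and 669, 599 and 579 CPM under TP-18. Its log2 fold change was -0.62 ± 0.17 (edgeR adjusted p = 0.193). The row Rpl34-ps1, named as a pseudogene and left out by the rule, had a log2 fold change of -0.54 at 100.2 ± 15.7 and 68.9 ± 2.72 CPM, so the counts of Rpl34 may share reads with it. Rpl18 had 1272, 1628 and 1269 CPM and then 1004, 980 and 895 CPM, a log2 fold change of -0.53 ± 0.15. Rpl23, which also binds the p53 inhibitor Mdm2, had 1446 ± 240 and 993 ± 57.3 CPM (-0.54), and Rpl31, near the exit of the peptide tunnel, 1068 ± 176 and 736 ± 61.8 CPM (-0.54). In each of these the TP-18 libraries lay below all vehicle libraries, and vehicle 2 was the highest library.

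The acidic stalk, formed by Rplp0, Rplp1 and Rplp2, recruits the elongation factors. Rplp0 had 1617, 2162 and 1714 CPM with vehicle and 1399, 1433 and 1024 CPM under TP-18, with TP-18 3 well below the other 2, and a log2 fold change of -0.51 ± 0.19. Rplp1 had 2114 ± 401 and 1542 ± 167 CPM (-0.46), and Rplp2 987 ± 171 and 722 ± 87.6 CPM (-0.45). Rpl5 and Rpl11, which carry the 5S ribosomal RNA and restrain Mdm2 when assembly fails, had 1774 ± 230 and 1321 ± 89.1 CPM (-0.43) and 971 ± 138 and 736 ± 34.4 CPM (-0.40). Rpl13a, which can leave the ribosome and silence inflammatory transcripts in interferon-treated myeloid cells, had 2155 ± 348 and 1577 ± 151 CPM (-0.45).

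Rpl3, Rpl8 and Rpl10 lie at or near the catalytic centre. Rpl3 had 1551 ± 170 and 1229 ± 106 CPM (-0.34), Rpl8 2168 ± 199 and 1681 ± 121 CPM (-0.37), and Rpl10, which joins the subunit late, 1008 ± 141 and 804 ± 62.1 CPM (-0.33). The abundant Rpl7, Rpl12, Rpl28, Rpl32, Rpl39 and Rpl41 had -0.39, -0.49, -0.36, -0.49, -0.45 and -0.47. In Rpl39, of the peptide tunnel, the groups overlapped, since vehicle 3 at 611 CPM lay below TP-18 1 at 632 CPM. Rpl7a, Rpl22 and Rpl21 were nearest to 0 among genes of standard components, at -0.24 ± 0.15, -0.22 ± 0.17 and -0.29 ± 0.24, and their groups overlapped. Rpl21 had 91 to 137 counts per library and Rpl32l few as well, at 2.37 to 4.09 CPM. Rpl3l, the paralogue of skeletal and heart muscle, had 4 to 17 counts per library, too few for a direction at this depth.

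**Figure D3:**
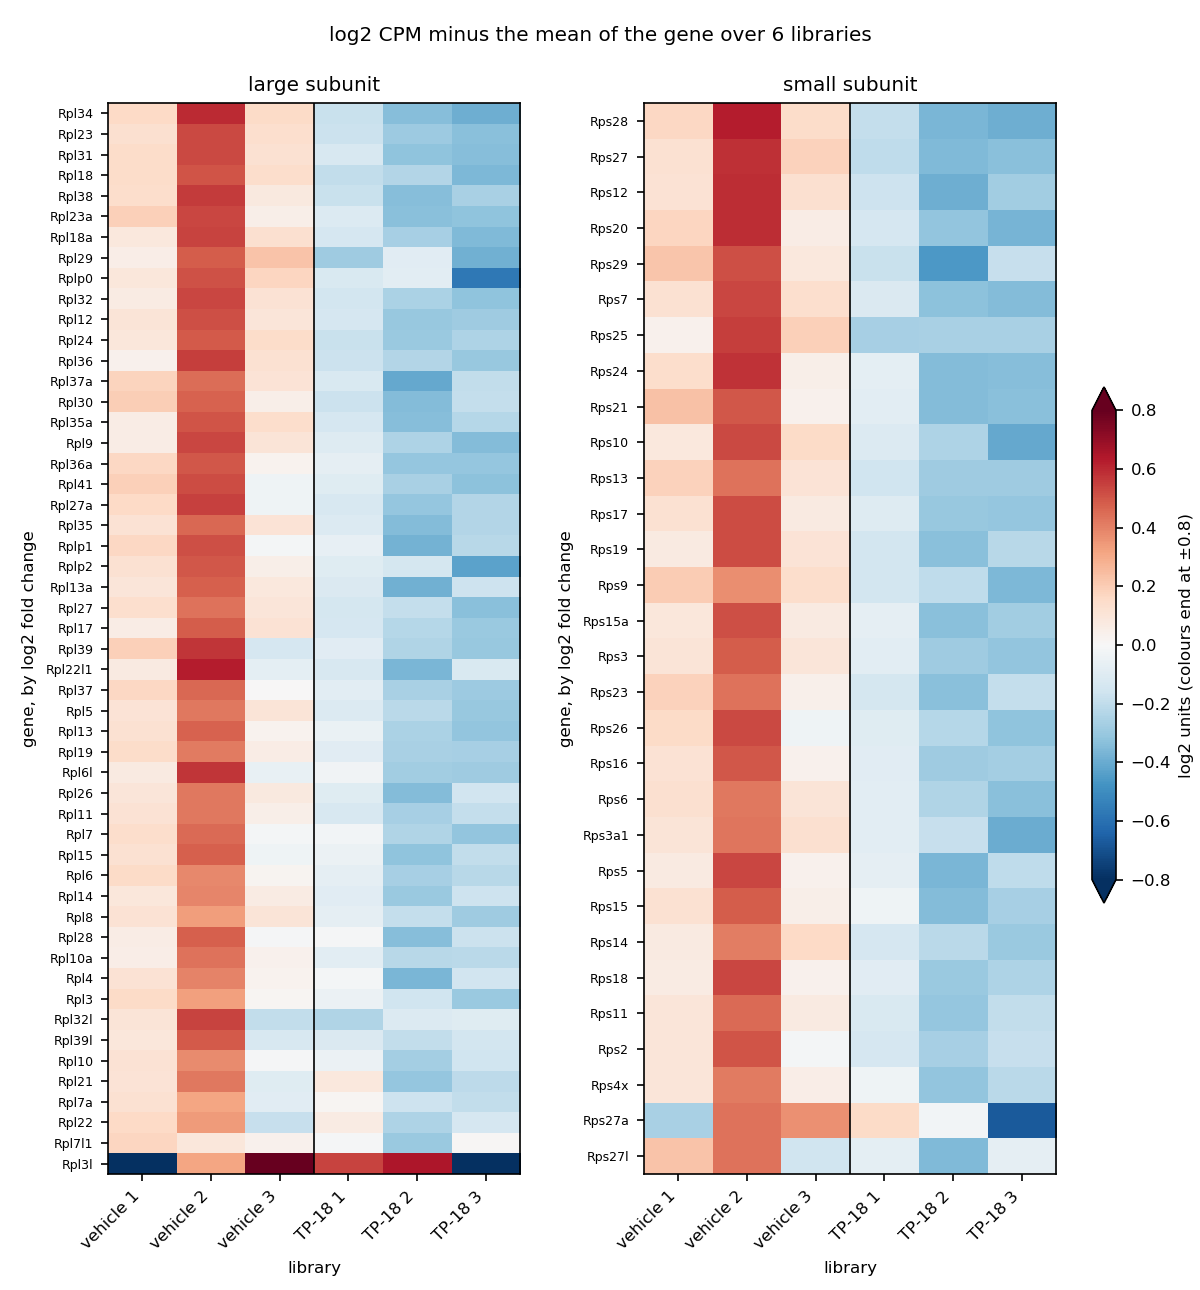
Each row is 1 gene (82 of the 83) and each column 1 library; colour gives log2 CPM minus the mean of that gene over the 6 libraries (red above, blue below, colours ending at ±0.8), with large subunit genes on the left and small subunit genes on the right, ordered by log2 fold change. The column of vehicle 2 is red in nearly every row and the TP-18 columns are mostly blue, with exceptions that include Rps27a and Rpl3l.

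Vehicle 2 carried the highest CPM of 81 of the 83 genes, the exceptions being Rpl7l1 (vehicle 1) and Rpl3l (vehicle 3). Set against each gene's own mean, the median member's log2 CPM stood at 0.12, 0.49 and 0.07 in libraries 1, 2 and 3 of the vehicle group and -0.11, -0.28 and -0.28 in those of the TP-18 group. Vehicle 1 and vehicle 3 thus lay closer to TP-18 1 than to vehicle 2. Without vehicle 2 the subunit medians were -0.31 (large) and -0.34 (small), beside 0.01 for all genes, and 47 members were lower at an unadjusted edgeR p under 0.05, as were 8.13% of all genes in that fit. All 83 were still negative, from -0.48 to -0.11, and 0 passed (smallest edgeR adjusted p = 0.223). Rps28 was at -0.48, Rpl34 and Rps27 both at -0.47, Rpl18 and Rps9 both at -0.42, Rplp0 at -0.39, Rps6 at -0.35, Rps27a at -0.24, Rpl7a at -0.15 and Rpl22 at -0.11. Without vehicle 2 and with library totals the medians were -0.13 and -0.16, beside 0.20 for all genes, and 0 members were lower at an unadjusted edgeR p under 0.05, against 3.61% of all genes. The count of members at that threshold also depended on other libraries, with 28 without TP-18 2 (7.61% of all genes) and 25 without TP-18 3 (5.96%).

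Almost all of this variation was shared. The standard deviation of log2 CPM over the 6 libraries had a median of 0.30 over members. When each gene was set against the median of its own subunit in the same library, which cancels any scaling of whole libraries, that standard deviation had a median of 0.065. Relative to the subunit, TP-18 and vehicle libraries differed by over 0.1 log2 units in 16 of the 83 genes. In 7 genes the relative level was higher and in 6 lower without overlap between groups, 13 of 83 in all, a description with no test. Of all tested genes, set against the median of all genes in place of a subunit, 8.63% were higher and 14.7% lower without overlap. The members' counts were not above these shares, which are only a rough background because the reference differs. With 1 library left out, which makes an overlap less likely, 10 to 14 were higher and 7 to 13 lower, with 11 and 7 without vehicle 2. The share of all genes was not computed with 1 library left out, so these counts have no background to be set against. The higher ones included Rpl22 (by 0.24), Rpl7a (0.22) and Rpl10 (0.13), and the lower ones included Rps28 (-0.18), Rpl34 (-0.16) and Rps27 (-0.15), where the numbers are the TP-18 mean minus the vehicle mean in log2 units. Without vehicle 2 these were 0.23, 0.19 and 0.11, and -0.16, -0.13 and -0.14. Rps27, Rps28 and Rpl34 are thus the genes that were lowest in the plain comparison too, from the same counts.

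Rps27a, which encodes ubiquitin fused to a ribosomal protein, varied between libraries of both groups. It had 537, 869 and 831 CPM with vehicle and 716, 635 and 405 CPM under TP-18, and the groups overlapped. Relative to the small subunit, and centred on its own mean, it was lowest in vehicle 1 (-0.36) and TP-18 3 (-0.44) and highest in TP-18 2, vehicle 3 and TP-18 1 (0.30, 0.30 and 0.27). Rplp0, treated in the same way, was lowest relative to the large subunit in TP-18 3 (-0.28) and highest in TP-18 2 (0.20). By contrast Rps6 stayed between -0.10 and 0.08 in all 6 libraries.

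**Figure D4:**
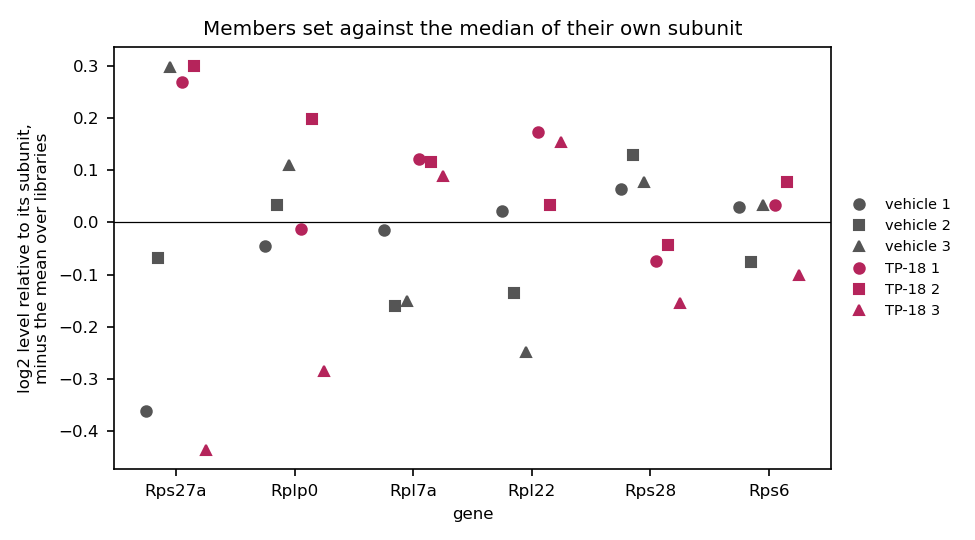
Level of 6 genes relative to the median of their own subunit in the same library, minus the mean over libraries (vertical axis, log2 units); grey symbols are vehicle and magenta symbols TP-18 libraries. Rps27a spans 0.74 log2 units with no order by group, Rpl7a and Rpl22 are higher and Rps28 lower in all TP-18 libraries, and Rps6 stays close to 0.

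Paralogues can replace a standard protein in some ribosomes. The log2 ratio of Rpl22l1 to Rpl22 in FPKM (pseudocount 0.1) was 1.63, 2.01 and 1.82 with vehicle and 1.52, 1.60 and 1.73 under TP-18, so that Rpl22l1 was the more abundant of the pair per length in every library, although Rpl22 had more counts. The difference between groups was -0.20 (exact two-sided permutation p = 0.2, adjusted p = 0.267 over 4 ratios; 3 against 3 cannot go below 0.1). Rps27l, a target of p53, stood at 1.81% of Rps27 on average, and its log2 ratio was -5.93 ± 0.22 with vehicle and -5.67 ± 0.13 under TP-18 (SD, n = 3 each, exact permutation p = 0.2). Rpl39l, best known from the testis, stood at 6.1% of Rpl39, with -4.09 ± 0.060 and -3.98 ± 0.093 (exact permutation p = 0.2). Rpl7l1, which acts in the nucleolus, stood at 1.62% of Rpl7, with -6.05 ± 0.24 and -5.86 ± 0.21 (exact permutation p = 0.6). None of the 4 ratios passed the test. Their sizes changed when single libraries were left out, while their directions did not. The difference for Rpl22l1 was -0.11 without vehicle 2 and -0.30 without vehicle 1. For Rpl7l1 it was 0.19 in all libraries, 0.051 without vehicle 2, 0.069 without TP-18 3 and 0.26 without TP-18 2. For Rps27l it was 0.26, then 0.25 without vehicle 2, 0.15 without vehicle 3 and 0.38 without vehicle 1. For Rpl39l it was 0.12, then 0.10 without vehicle 2, 0.065 without TP-18 3 and 0.16 without TP-18 1. These levels rest on the deposited lengths, which for Rps27l is 2.15 kb against 0.499 kb in GENCODE and would put its level at 158 in place of 36.6 FPKM.

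Members with and without these features had nearly equal medians, given here as a description. The median log2 fold change was -0.45 in the 47 members with a pyrimidine run near the start and -0.45 in the 15 without one. It was -0.44 in the 24 with CCGGAAG and -0.46 in the 38 without it, and -0.45 in both the 29 members that hold a snoRNA gene and the 54 that do not.

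Ribosomal components whose names fall outside the rule gave values in the same range. Rpsa, of the small subunit, had 2413 ± 377 CPM with vehicle and 1906 ± 183 CPM under TP-18 (-0.34), and Rack1, a signalling scaffold on the small subunit, 1973 ± 244 and 1540 ± 132 CPM (-0.36). Fau, which encodes a ribosomal protein fused to a ubiquitin-like protein, had -0.44. None of the 3 passed the edgeR test (adjusted p = 0.249 to 0.333). They belong to a list of 22 further genes of the translation machinery, most of them with TOP motifs. In this list 20 were negative with a median of -0.33, and 0 passed. At an unadjusted edgeR p under 0.05, 11 of them were lower, beside 8.7% of all genes. Tpt1, a TOP-bearing gene of cell growth, had 6119 ± 1077 and 3960 ± 522 CPM (-0.63), the elongation factor Eef1a1 13290 ± 860 and 10825 ± 785 CPM (-0.30), and Eef2 6158 ± 99.6 and 5348 ± 353 CPM (-0.20). With library totals the median of this list was -0.15, beside 0.20 for all genes.

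Further genes act in translation and ribosome assembly. Of 38 initiation and elongation factors, 32 were negative with a median of -0.20, and 0 passed. At an unadjusted edgeR p under 0.05, 8 of them were lower, beside 8.7% of all genes. Eif1, which helps to select the start codon, had 729.8 ± 80.5 and 492 ± 24.7 CPM (-0.57), and Eif4a1, a helicase, 772 ± 49.7 and 695 ± 44.1 CPM (-0.15). Of 60 genes of ribosome biogenesis and the nucleolus, 50 were negative with a median of -0.18, and 0 passed. At the same unadjusted p, 12 of these were lower, beside 8.7% of all genes. Ncl, the main nucleolar protein, had 1364 ± 71.8 and 1257 ± 139 CPM (-0.12), and Fbl, which methylates ribosomal RNA, 159 ± 24.2 and 142 ± 15.6 CPM (-0.16). With library totals these medians were -0.02 and -0.01, beside 0.20 for all genes.

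The 78 genes of mitochondrial ribosomal proteins, the parallel set of another ribosome, had a median of -0.02, with 44 negative and 34 positive. At an unadjusted edgeR p under 0.05, 1 was lower (Mrpl33, -0.43), beside 8.7% of all genes, and 0 passed. Whether these values differ from those of the cytosolic set was not tested. Genes of mTORC1, the S6 kinases and TOP control had a median of 0.01, with 11 of 24 negative and 0 that passed. At an unadjusted edgeR p under 0.05, 2 were higher and 2 lower, where 7.56% and 8.7% of all genes were. Without overlap, 3 were higher and 2 lower, where 11.6% and 11.7% of all genes were. These counts were near those shares and do not set the list apart from all genes. The higher ones at that p were Mlst8, a subunit of mTORC1 (0.61), and Eef2k, the kinase of Eef2 (0.42), and the lower ones Rheb, which activates mTORC1 (-0.35), and the S6 kinase gene Rps6kb2 (-0.45). In the list of p53 and its targets, which includes the member Rps27l, 14 of 18 were negative with a median of -0.30, and 0 passed. At an unadjusted edgeR p under 0.05, 6 of them were lower, beside 8.7% of all genes. With library totals 11 of the 18 were negative and their median was -0.12, beside 0.20 for all genes. Mdm2, which Rpl5, Rpl11 and Rpl23 bind, had 453 ± 102 and 288 ± 6.80 CPM (-0.65, edgeR adjusted p = 0.201), and Cdkn1a 575 ± 139 and 417 ± 26.5 CPM (-0.47). Comparisons between these lists share the same libraries.

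The makeup of the libraries differed as well. The summed level of 11 macrophage markers, all detected, was 14741, 6930 and 19050 CPM in libraries 1, 2 and 3 of the vehicle group, and 8408, 6956 and 9669 CPM in those of the TP-18 group, so that vehicle 2, highest in ribosomal protein genes, was lowest in these beside TP-18 2. Apoe, a lipid carrier and the most abundant of them, had 7763, 3248 and 11102 CPM and then 3119, 2692 and 3229 CPM. The 8 neutrophil markers in the table summed to 72.1, 260.1 and 113 CPM and to 78.3, 184 and 99.0 CPM, also highest in vehicle 2. The 8 erythroid and platelet markers summed to 151, 622 and 215 CPM and to 73.0, 221 and 63.9 CPM. In vehicle 2 these were almost wholly Pf4, with 571 CPM, whereas Hba-a1 and Hbb-bs were highest in vehicle 1, at 23.0 and 42.2 CPM. The 16 cell cycle genes summed to 1550, 1151 and 990 CPM and to 2062, 1231 and 2375 CPM, and 8 endothelial markers to 55.3, 188 and 75.8 CPM and to 209, 190 and 132 CPM. Fibroblast and pericyte markers (10 genes) summed to 749 to 1204 CPM with vehicle and 1496 to 1864 CPM under TP-18, without overlap. The log2 fold change was positive in all 16 cell cycle genes, all 8 endothelial genes and 9 of the 10 fibroblast and pericyte genes. Medians were 0.67, 0.70 and 0.73, and 0 passed. At an unadjusted edgeR p under 0.05, 7, 2 and 7 of them were higher and 0 lower, beside 7.56% higher among all genes. Without overlap, 1, 2 and 6 were higher, beside 11.6% of all genes. The 8 epithelial or carcinoma genes summed to 590, 699 and 490 CPM and to 553, 558 and 288 CPM, highest in vehicle 2. Nearly all of this was Krt20, with 239 to 522 CPM, and Sox9, which fell (-1.74, edgeR adjusted p = 0.0137), while Epcam, Krt8, Krt19, Cdh1 and Cldn4 lay between 0 and 2.29 CPM. The list for mast cells, basophils and eosinophils had 6 tested genes, 5 with a positive log2 fold change, and a median of 2.62. In it 4 were higher at an unadjusted edgeR p under 0.05 and 4 without overlap, beside 7.56% and 11.6% of all genes. Levels were low, and the 9 genes of this list in the table summed to 28.7 to 66.9 CPM per library, with overlap between groups. The 8 B and plasma cell markers summed to 22.4, 80.2 and 36.2 CPM and to 33.3, 34.6 and 44.5 CPM, highest in vehicle 2 through Sdc1 at 78.8 CPM. The 10 T and NK cell markers in the table summed to at most 31.3 CPM and the 8 dendritic cell markers to at most 14.6 CPM in any library. The part of these differences in the ribosomal protein result was not tested.

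Ribosomal protein genes are also short: 82 of the 83 were shorter than the median tested gene, with a median length of 0.821 kb against 3.52 kb, and their median GC content was 51.8% against 50.2%. When the trend of each library on gene length was removed, the subunit medians were -0.26 (large) and -0.24 (small), beside -0.03 for all genes. With GC content removed too they were -0.26 and -0.28, and 43 members were lower at an unadjusted edgeR p under 0.05, as were 11.9% of all genes.

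**Figure D5:**
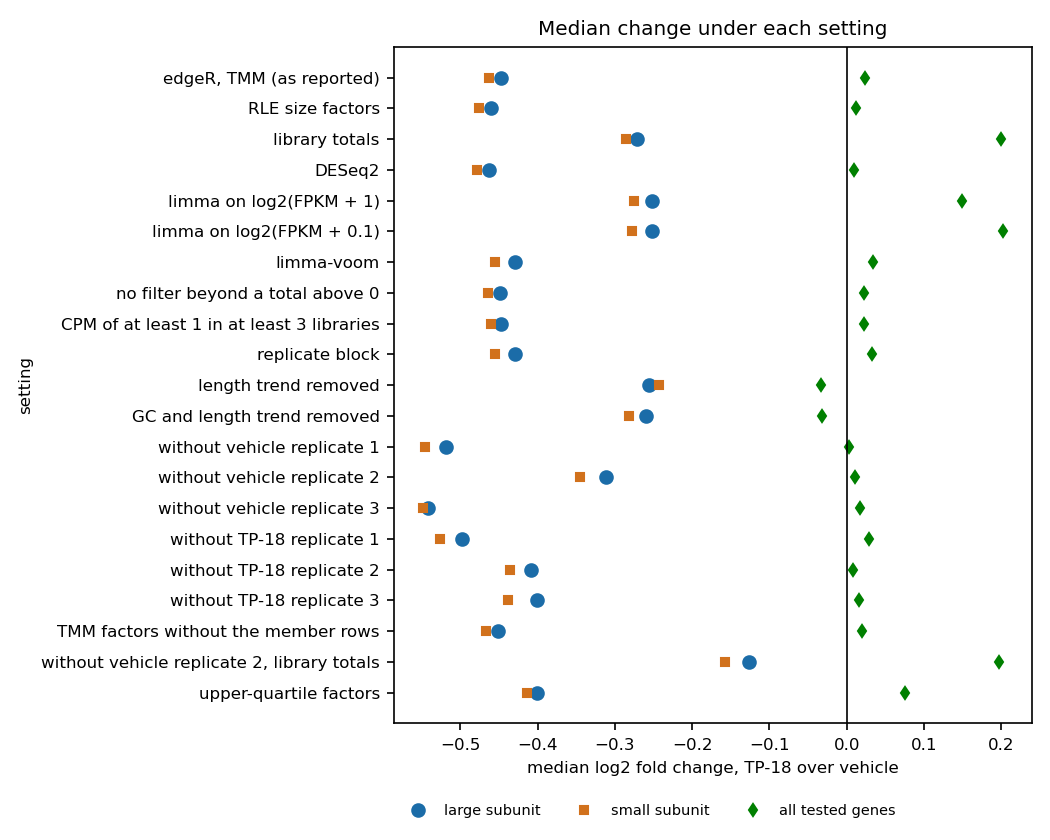
Median log2 fold change of TP-18 over vehicle (horizontal axis) for large subunit genes (circles), small subunit genes (squares) and all tested genes (diamonds) under each setting, 1 per line. The subunit medians stay below 0 and below the median of all genes in each of the 21 settings, from -0.54 and -0.55 without vehicle 3 to -0.13 and -0.16 without vehicle 2 and with library totals.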

How the data were processed

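For 17191 genes the authors gave raw counts, and the deposited FPKM values are such that each equals the count divided by the library total and by 1 length per gene, to a relative tolerance of 1e-06 in all 91270 values above 0. The tools were fastp, HISAT2 and HTSeq on GRCm38, per the submitters' processing notes. Versions, the treatment of reads that map to several places, the use of strand and the annotation release are not given in the sources used here. TP-18 was compared with vehicle on the counts by the quasi-likelihood test of edgeR 4.0.16 (R 4.3.3), with no covariate, after filterByExpr (minimum count 10, minimum total 15), which kept 12721 genes, with TMM scaling and Benjamini-Hochberg adjustment over all of them at a threshold of 0.05. CPM values are TMM-scaled. FPKM values are scaled to library totals. Standard errors are the absolute log2 fold change over the square root of F. On simulated counts for this comparison with 12562 genes it found 0 of 67 genes with a simulated 1.5-fold change, 19 of 66 at 2-fold and 58 of 64 at 4-fold. Gene positions, GC content and transcript lengths came from GENCODE M21 on GRCm38, matched by Entrez identifier or symbol for 16852 genes, and promoter windows from RefSeq on GRCm38.p6. Alternatives used DESeq2 1.42.0, limma 3.58.1 and mgcv 1.9.3, and figures matplotlib 3.10.9. The members, the lists and the rule for named genes were chosen with earlier results of these data known. Named were the most abundant members, those with the smallest p or farthest from the median of their subunit, and a set list of stalk proteins, paralogues and members with functions outside translation. Other members named were chosen after their values were seen. Single-gene values of 1 member are not reported here and its row is not drawn, but it is counted in all summaries.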

Additional observations from a re-analysis of the deposited data

How the results depend on the processing

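In 20 alternative fits, 3 of them (TMM factors without the member rows, upper-quartile factors, and library totals without vehicle 2) chosen after seeing the data, 0 members were called higher, and 0 lower except with DESeq2, which called 7. The count of members with a negative log2 fold change cannot exceed the reported 83, and it stayed within 1.5 times of it in all of them. It was 82 with library totals, and the named members that turned positive in some fits are given below. The number lower at an unadjusted p under 0.05, reported as 67, was 6 with library totals, 2 with limma on log2(FPKM + 1) and 2 on log2(FPKM + 0.1), 39 with the length trend removed, 43 with GC and length removed, 42 with upper-quartile factors, and 0 without vehicle 2 on library totals; with each library left out in turn it ran from 25 to 76. Of all genes, 3.36% to 12.3% were lower at that threshold over these fits. Leaving libraries out of the relative levels was also added after seeing the data. Medians for the large and small subunit were -0.25 and -0.28 with limma on log2(FPKM + 1), -0.25 and -0.28 on log2(FPKM + 0.1), -0.26 and -0.24 with the length trend removed, -0.26 and -0.28 with GC and length removed, and -0.13 and -0.16 without vehicle 2 on library totals, and with each library left out they ran from -0.54 to -0.31 and from -0.55 to -0.34. As a share of summed FPKM, the TP-18 minus vehicle difference of all members was -2.52 percentage points, against -1.47 as a share of counts. Among 43 named members, 840 of 859 values kept direction and call. Rpl3l was positive with library totals (0.069), limma on FPKM (0.018 and 0.056), without vehicle 3 (0.41), without TP-18 3 (0.29) and without vehicle 2 on library totals (0.078); under the last setting so were Rpl21 (0.028), Rpl22 (0.075), Rpl32l (0.062), Rpl39l (0.033) and Rpl7a (0.037), and Rpl22l1 was 0.00901 with GC and length removed. The cause of these shifts was not tested. The limma fits used FPKM, which is scaled to library totals, so they share that scaling with the fit on library totals. Same-numbered libraries did not deviate together throughout (correlations of 0.16, 0.39 and -0.15), and a replicate block called 0 members, with medians of -0.43 and -0.45 and 51 lower at an unadjusted p under 0.05. With 3 libraries a group, the test recovered none of the simulated 1.5-fold changes, and the medians here are smaller than that.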
